A study of Mus musculus with 4 samples.

Results

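Chromosome 8 carried 920 reproducible HTATSF1 peaks, out of 8882 in the whole genome. They were chosen by position: a chromosome 8 peak of replicate 1 that met any peak of replicate 2, over 1 bp or more, is called a shared peak here. The lists held 1703 peaks on chromosome 8 in replicate 1 and 1276 in replicate 2, so 783 replicate 1 peaks had no partner. The overlap that chose the shared peaks, and the scores and widths that go with it, come from the same pair of libraries and are given as descriptions without a test. Chromosome 8 was also singled out because its scores were already known to be high.

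HTATSF1 chromatin immunoprecipitation and sequencing (ChIP-seq) was done in mouse embryonic stem cells from tatsf1 flox/flox CreERT2 mice, which carry loxP-flanked alleles of the gene and a Cre recombinase that tamoxifen-type ligands activate. The cells were grown on mouse embryonic fibroblasts (MEFs) in conventional medium, and no treatment is recorded, for both kinds of library. The study made 2 libraries with a rabbit antibody against a mouse HTATSF1 peptide and 2 input libraries with no antibody. The labels give neither separate cultures nor clones, so differences between the libraries may be technical. The fibroblast feeders could add chromatin to every library, and their share is not given.

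HTATSF1 is an RNA-binding protein of the nucleus, first known as a cellular cofactor of the HIV transactivator Tat and later as a partner of the U2 snRNP, the particle that recognises the branch point of introns. Splicing takes place largely while RNA is being transcribed, so proteins of this kind can be crosslinked to the chromatin of active genes through nascent RNA. Such a protein need not touch DNA itself, so its peaks may mark regions and not DNA motifs. No motif was looked for here.

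Positions are in mm9, counted from 1. Gene names, exons and sequences at these positions are not given, because the reference at hand was of another build, GRCm38: 5 of the shared peaks lie beyond its last gene on chromosome 8. The blocks described here are therefore dense in peaks. Whether they are also rich in genes was not analysed here. The score is the authors' value for each peak. What it measures is not stated, so its size is compared within a list, and between lists by percentile rank over the whole list. The read depth behind the lists is unknown.

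In replicate 1, 54.0% of the chromosome 8 peaks were shared (exact 95% binomial interval 51.6 to 56.4%), against 45.6% over all chromosomes, 44.9% on the other autosomes together and 45.1% on chromosome 11, which has a similar number of peaks. Counted from replicate 2, 973 of the 1276 chromosome 8 peaks (76.3%, interval 73.8 to 78.6%) overlapped a replicate 1 peak, against 65.2% over all chromosomes and 64.3% on the other autosomes. The intervals cover counting error only. Most matches were simple: 835 shared peaks had 1 partner, 80 had 2 and 5 had 3, and 778 were one-to-one. The midpoints of a shared peak and its highest-scored partner lay a median of 93.5 bp apart (quartiles 40.5 and 179.4 bp). A replicate 2 partner lay wholly inside its replicate 1 peak in 425 cases, and the reverse held in 57.

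The overlaps at the limit of the rule were short. The shared peak with the least overlap, at 33119305 to 33119625 (replicate 1 score 62.8), met its partner (replicate 2 score 96.0) over 12 bp. Just outside the rule, the unshared peak at 73785183 to 73785391 (score 51.5) lay 3 bp from a replicate 2 peak scored 54.8. Overlaps of 50 bp or less made up 10 of the shared peaks. Of the 783 unshared peaks, 17 had a replicate 2 peak within 50 bp and 155 within 1 kb, and the median distance was 7.74 kb.

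The HTATSF1 peaks of chromosome 8 were wide. Shared peaks had a median width of 689.5 bp in replicate 1, from 179 to 2128 bp. On the other autosomes, the median of shared peaks was 490 bp, and no single autosome had a median under 469 or over 513 bp. In replicate 2, the shared chromosome 8 peaks had a median width of 475 bp, against 333 bp on the other autosomes and single-autosome medians of 316 to 349.5 bp. The median of chromosome 8 thus lay outside the range of the 18 other autosomes in both libraries. Its unshared peaks, with medians of 409 bp in replicate 1 and 260 bp in replicate 2, were narrower than its shared ones.

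Width goes with score, and chromosome 8 had high scores, so widths were compared at equal score. Each list was divided at the deciles of the scores on all autosomes into 10 bins. In replicate 1, the chromosome 8 median was larger than that of each of the 18 other autosomes in 10 of 10 bins. The ratio to the other autosomes together was lowest in the fourth bin, at 1.17 (387 against 330 bp), and highest in the sixth, at 1.33 (537 against 403.5 bp). In replicate 2 the same held in 10 of 10 bins, with ratios from 1.18 in the second bin (236.5 against 200 bp) to 1.45 in the first (253 against 174 bp). The difference was therefore present among the weakest peaks as well as the strongest. The highest bin has no upper edge other than the highest score, so within it scores are matched less closely.

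**Figure D1:**
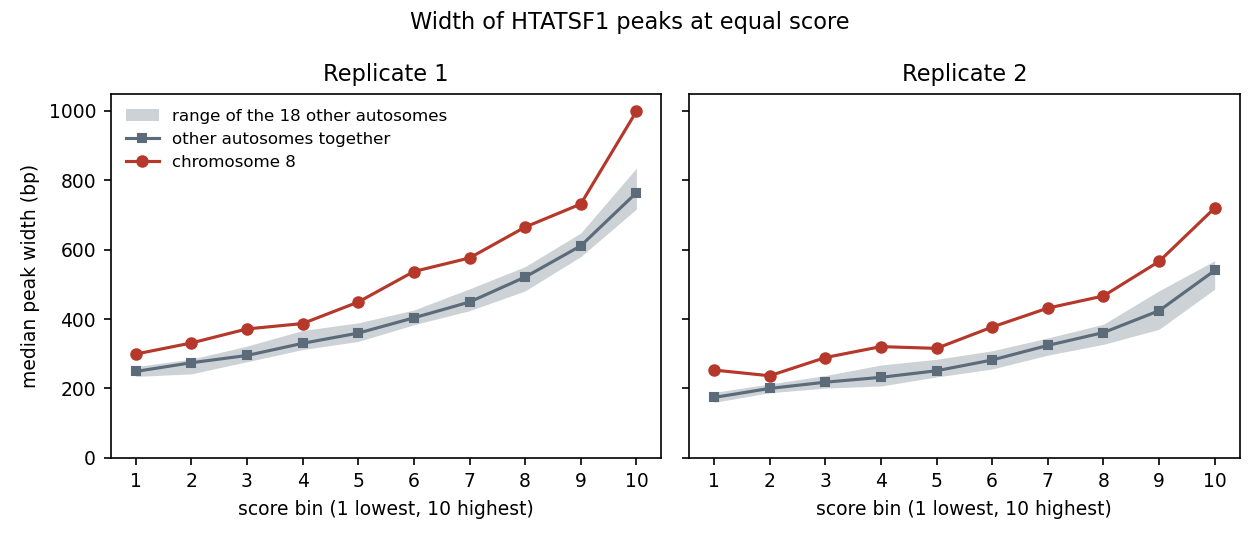
Median width in bp (vertical axis) of peaks in 10 bins of rising score (horizontal axis), for chromosome 8 (red circles), the other autosomes together (grey squares) and the range of the 18 single autosomes (grey band), in replicate 1 (left) and replicate 2 (right). The red line lies above the band in 10 of 10 bins in both lists.

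Each peak's width was then divided by the median width of other-autosome peaks in the same score bin. Chromosome 8 had a median ratio of 1.26 in replicate 1 and 1.33 in replicate 2. For the 18 other autosomes, compared in the same way, it lay between 0.972 and 1.03 in replicate 1, and between 0.971 and 1.04 in replicate 2. Since wide peaks meet a partner more easily, the ratio was also taken for shared and unshared peaks apart. Among shared peaks it was 1.27 and 1.32 in replicates 1 and 2, where the other autosomes reached at most 1.07 and 1.03. Among unshared peaks it was 1.24 and 1.22, where they reached at most 1.03 and 1.05. The peaks that failed the overlap were thus also wider on chromosome 8 than on the other autosomes at equal score.

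The greater width was seen along the chromosome where windows held enough peaks, and not only in its densest stretches. Windows with fewer than 20 peaks, among them all from 50000001 to 70000000, were not assessed. In replicate 1, 20 windows of 5 Mb on chromosome 8 held at least 20 peaks, and their median width ratios lay between 1.07 and 1.36. The 266 such windows on the other autosomes ran from 0.822 to 1.14, and 19 of the 20 chromosome 8 windows lay above the highest of them, a window on chromosome 7. The exception was the window from 15 to 20 Mb, at 1.07. In replicate 2, the 17 windows of chromosome 8 ran from 1.07 to 1.53, the 222 others from 0.783 to 1.22, and 15 of the 17 lay above the highest other window, on chromosome 5. The windows from 45 to 50 Mb (1.16) and from 115 to 120 Mb (1.07) were the exceptions there. In replicate 1 those 2 windows had ratios of 1.19 and 1.15. The window with the highest ratio was the same in both lists, 35 to 40 Mb, at 1.36 and 1.53. Whether these cells carried extra copies of chromosome 8 was not tested. The width ratios, scores, peak numbers and shares given here therefore cannot be read as HTATSF1 per copy of the chromosome.

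**Figure D2:**
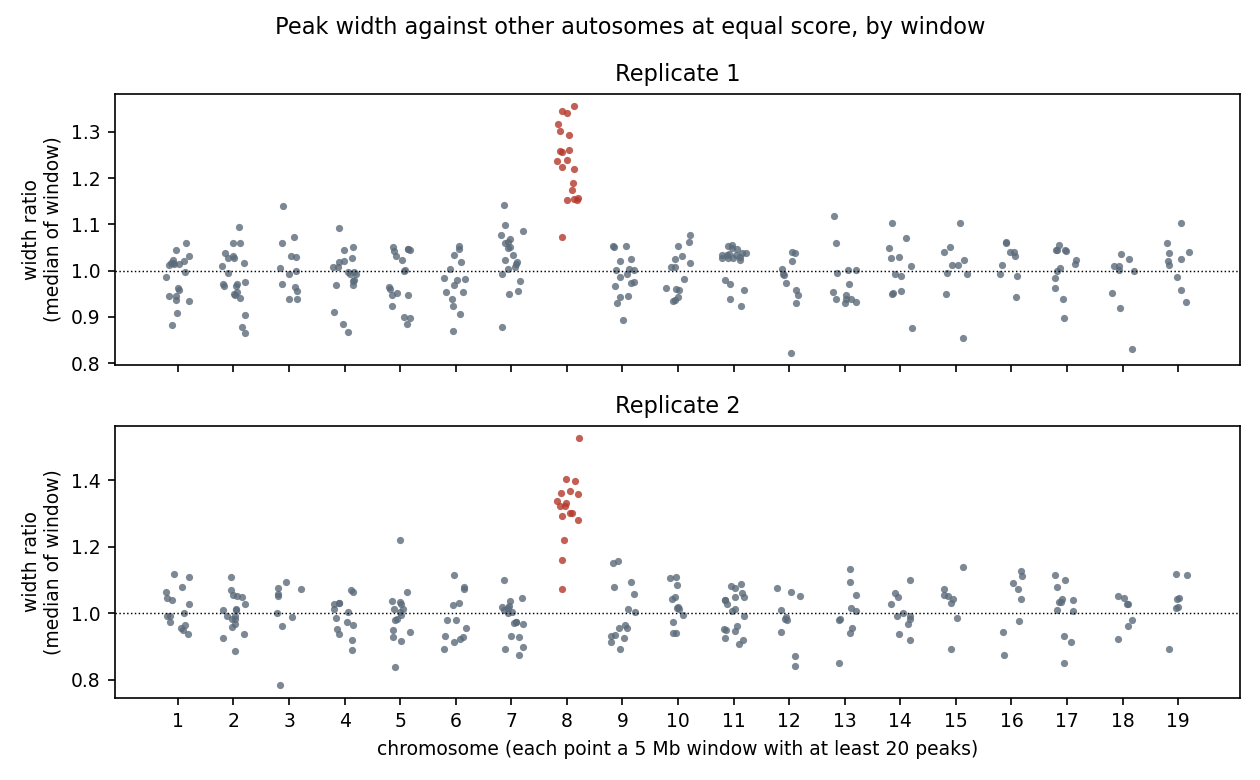
Median ratio of peak width to that of other-autosome peaks at equal score (vertical axis) in 5 Mb windows with at least 20 peaks, by chromosome (horizontal axis), for replicate 1 (top) and replicate 2 (bottom). The chromosome 8 windows (red) lie between 1.07 and 1.36 in replicate 1 and reach 1.53 in replicate 2, while the other windows (grey) do not pass 1.14 and 1.22.

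Read the other way, chromosome 8 peaks had a low score for their width. With peaks placed in 10 bins of width, the median ratio of score to the other-autosome median of the same bin was 0.856 in replicate 1 and 0.897 in replicate 2. The lowest other autosomes were chromosome 7 at 0.976 in replicate 1 and chromosome 19 at 0.981 in replicate 2. The high scores of chromosome 8 and its low scores per width therefore stand side by side. The read depth of chromosome 8 in the input libraries, which bears on its copy number, was not analysed here.

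The next comparison asked whether a chromosome 8 peak recurred in the other library more often than a peak of equal score elsewhere. Weighted to the score bins of chromosome 8, 49.5% of the other autosomes' replicate 1 peaks were shared, against 54.0% on chromosome 8. The difference fell from 9.17 percentage points before weighting to 4.55 after it. Single autosomes weighted in this way ran from 46.8% (chromosome 10) to 52.0% (chromosome 16). In replicate 2, the other autosomes came to 69.4% against 76.3%, a difference of 6.87 points where it had been 11.9, and single autosomes ran from 65.4% (chromosome 18) to 73.8% (chromosome 19). Chromosome 8 lay above each of the 18 in both directions of counting.

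By score, chromosome 8 was higher in 7 of 10 bins in replicate 1, with its largest differences in the upper 3. In the lowest bin (scores up to 54.5), 32 of 162 chromosome 8 peaks were shared (19.8%, exact interval 13.9 to 26.7%), against 20.2% elsewhere. The third bin had 32.8% (24.97 to 41.5%) against 26.2%, and the sixth 49.7% (41.3 to 58.0%) against 44.6%. In the fourth bin chromosome 8 was lower, with 29.2% (21.7 to 37.6%) against 34.1%. In the eighth, ninth and highest bins it had 72.0% (64.4 to 78.8%), 82.1% (76.1 to 87.2%) and 94.9% (91.8 to 97.1%), against 62.2%, 70.3% and 86.4%. In these 3 bins the interval for chromosome 8 lay above the other autosomes' share. In replicate 2 chromosome 8 was higher in 10 of 10 bins, and its interval lay above the others in 4. The largest differences there were in the third bin (65.3%, 55.0 to 74.6%, against 47.5%) and the seventh (90.4%, 83.4 to 95.1%, against 72.7%). The intervals cover counting error only and are not a test, since peaks of a single pair of lists are not replicates.

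**Figure D3:**
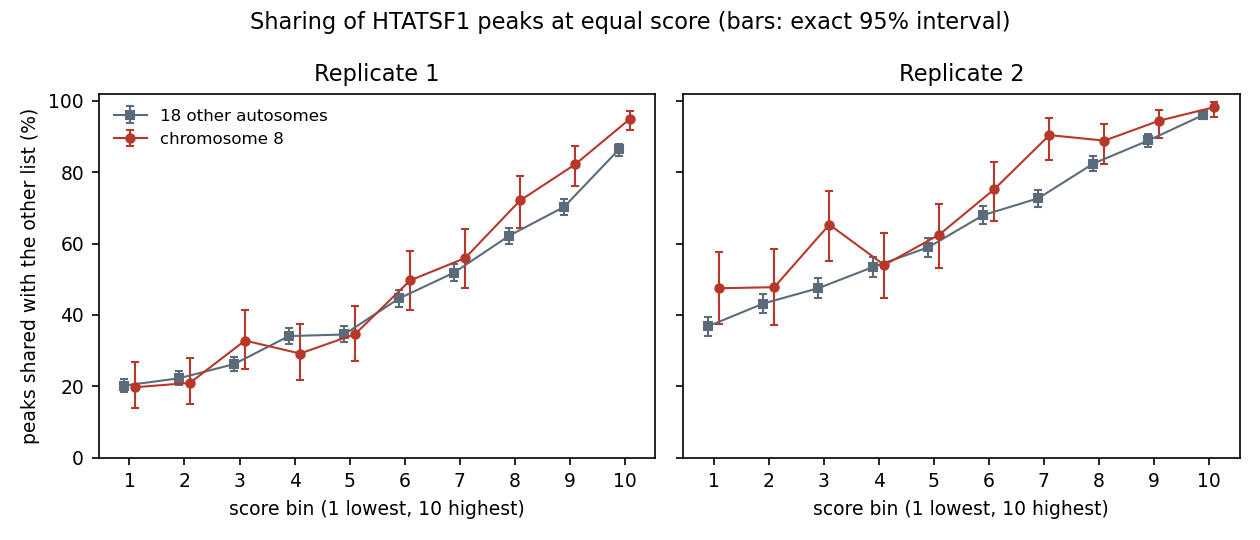
Percentage of peaks that overlap a peak of the other list (vertical axis) in 10 bins of rising score (horizontal axis), on chromosome 8 (red circles) and the 18 other autosomes together (grey squares), with exact 95% intervals for counting error. In replicate 1 (left) chromosome 8 is higher in 7 of 10 bins, most in the upper 3, and in replicate 2 (right) chromosome 8 is higher in 10 of 10 bins, by 0.520 to 17.8 points.

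The excess varied with how peaks were matched and how sharing was set. With peaks matched by width in place of score, the other autosomes came to 57.4% in replicate 1 and 79.0% in replicate 2, so chromosome 8 was lower by 3.38 and 2.78 points. Matched in this way, each of the 18 other autosomes lay above chromosome 8 in replicate 1 (54.9 to 60.6%), and 16 of 18 did in replicate 2 (74.6 to 81.6%). Matched on score and width together, the difference was 0.668 points in replicate 1 and -0.557 points in replicate 2. When sharing was set by midpoints within 200 bp, the difference was 0.831 and -0.887 points at equal score. With midpoints within 1 kb, a rule of the same form, the difference was 4.46 and 5.32 points. Whether midpoints of wide peaks scatter more than those of narrow ones was not tested. With an overlap of at least 50% of each peak the difference was 7.45 and 5.47 points. So the direction of the sharing difference turned in both lists when peaks were matched by width in place of score. Matching by width leaves scores unequal, since chromosome 8 peaks scored 0.856 and 0.897 times the others of equal width. What lies behind the excess was not tested. Matching on score and width together turned the excess in replicate 2 (-0.557 points) and left 0.668 points of it in replicate 1. Midpoints within 200 bp likewise turned it in replicate 2 but not in replicate 1.

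Among the shared peaks themselves, those of chromosome 8 reached high scores in both libraries more often. The replicate 1 score of a shared chromosome 8 peak had a median of 149.96 (lowest 50.2, highest 704.8), against 120.2 on the other autosomes, where single medians ran from 111.3 to 124.5. The shared replicate 2 peaks had a median of 94.8 (lowest 50.0, highest 546.7), against 83.3, with single medians from 78.8 to 89.1. Both medians were above the highest of the other autosomes, chromosome 17. In the upper 10% of both lists by score were 130 of the 920 shared peaks (14.1%, exact interval 11.9 to 16.6%), against 7.69% of shared peaks on all chromosomes, 6.93% on the other autosomes together and 9.89% on the highest of them, chromosome 9. High scores were not limited to shared peaks. Of all chromosome 8 peaks, shared or not, 17.4% in replicate 1 and 17.3% in replicate 2 lay in the highest of the 10 score bins. At the other end, 94 shared peaks (10.2%) were in the lower 50% of both lists, against 14.6% on all chromosomes and 15.1% on the other autosomes.

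The order of scores agreed in part between the libraries. The Spearman correlation of replicate 1 and replicate 2 scores over the 920 shared peaks was 0.45. On the other autosomes it ran from 0.28 (chromosome 16, 259 peaks) to 0.41 (chromosome 9, 455 peaks). These are correlations across peaks of a single pair of libraries, in which neighbouring peaks share chromatin and width goes with score. Percentile ranks differed by a median of 15.2 between the lists and by no more than 10 for 353 shared peaks. They differed by over 50 for 104, of which 61 ranked higher in replicate 1 and 43 in replicate 2.

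The largest disagreements in rank were between peaks that overlap, which need not be the same site in both libraries. The peak at 126382996 to 126383959 scored 349.0 in replicate 1 (percentile 98.6) and its partner 50.8 in replicate 2 (percentile 2.68). The peak at 129117742 to 129118901 scored 472.7 (99.7) and 51.3 (4.65), and that at 119780105 to 119781185 scored 323.2 (97.9) and 50.9 (3.11). Each of these was 964 to 1160 bp wide in replicate 1 and met a replicate 2 peak near the lowest score of its list. In the opposite direction, the peak at 108861094 to 108861533 scored 50.6 in replicate 1 (percentile 1.28) and 228.5 in replicate 2 (97.9). The peaks at 123044721 to 123045099 (54.5 and 210.5) and 74153684 to 74154001 (53.2 and 170.4) followed. Their partners lay at 108861457 to 108862373, 123044579 to 123045321 and 74153028 to 74153791. The first and the last of these 3 met their partners at an edge only, and had another shared peak within 1 kb in replicate 1. Their differences in score may therefore come from the overlap rule.

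The 20 shared peaks that ranked highest over both lists together, by mean percentile, scored 361.6 to 699.98 in replicate 1 and 265.4 to 546.7 in replicate 2, and each had 1 partner. The highest was the peak at 23969520 to 23970375 (scores 686.0 and 546.7), followed by the peak at 112301814 to 112303063 (699.98 and 486.2). Wide peaks prevailed, with a median width of 1196.5 bp, and 19 of the 20 were wider than the median shared peak. The eighth, at 73222058 to 73223455 (568.98 and 323.0), lay in the fullest block of the chromosome. Another, at 114059753 to 114060895 (492.3 and 321.2), had no other shared peak within 50 kb. The twelfth, at 87513186 to 87515313 (391.1 and 405.5), was the widest of the 20, at 2128 bp, and had 14 other shared peaks within 50 kb, a number that no shared peak of the chromosome exceeded. The fourteenth, at 108159909 to 108160986 (461.1 and 269.9), had 4.

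High-scoring shared peaks lay both in dense runs and apart from them. Of the 20, 6 lay in blocks, in 6 different ones, while blocks held 50.1% of all shared peaks. Of the same 20, 8 had no other shared peak within 50 kb, and 4 of these lay between 15 and 20 Mb. Over all shared peaks, 169 of 920 (18.4%) had none, and of the 130 in the upper 10% of both lists, 27 (20.8%) had none. The 5 highest shared peaks with no other within 100 kb were at 19784422 to 19784982 (scores 439.8 and 428.3), 81818490 to 81819411 (412.3 and 385.8), 18594614 to 18595998 (412.98 and 285.4), 18845919 to 18847190 (399.1 and 265.4) and 88224005 to 88225248 (332.5 and 250.95). Those that begin at 19784422, 18594614 and 18845919 lie in that same stretch, described below. Shared peaks with no other within 100 kb numbered 78, with median scores of 145.7 in replicate 1 and 92.6 in replicate 2.

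The stretch from 15 to 20 Mb stood apart from the rest of the chromosome. It was singled out after its values were seen. It held 24 replicate 1 peaks, of which 7 were shared (29.2%), and 4 of the 7 were among the 20 highest of the chromosome. These 4 scored 399.1 to 439.8 in replicate 1, while the 17 unshared peaks of the stretch had a median of 61.3 and reached at most 187.3. The peak at 19784422 to 19784982 began and ended 1 bp from its replicate 2 partner, and that at 19892467 to 19893362 (399.1 and 346.3) began 3 bp and ended 5 bp from its own. Over chromosome 8, 6 of 920 shared peaks had both edges within 10 bp of a partner's (0.652%), and on the other autosomes 52 of 7939 did (0.655%). This was also the replicate 1 window with the lowest width ratio of the chromosome. Whether these peaks come from repeated sequence was not tested.

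Shared peaks lay close together on chromosome 8. The median distance from one midpoint to the next was 28.6 kb, against 41.9 kb on chromosome 11, 42.2 kb on chromosome 7 and 59.9 kb on the other autosomes together. The lowest single value elsewhere was 41.6 kb, on chromosome 19. The difference lay at distances above 1 kb: 64.0% of the distances on chromosome 8 were at most 50 kb, against 54.6% on chromosome 11 and 45.4% on the other autosomes. Distances of at most 1 kb were no more frequent on chromosome 8, with 5.88% against 6.87% and 6.65%. Wide peaks cannot have midpoints as near to each other as narrow ones, and their part in this was not tested. The mean distance, 139.2 kb on chromosome 8 and 147.6 kb on chromosome 11, differed less than the median. The share of distances over 500 kb was 5.11% and 5.74%.

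**Figure D4:**
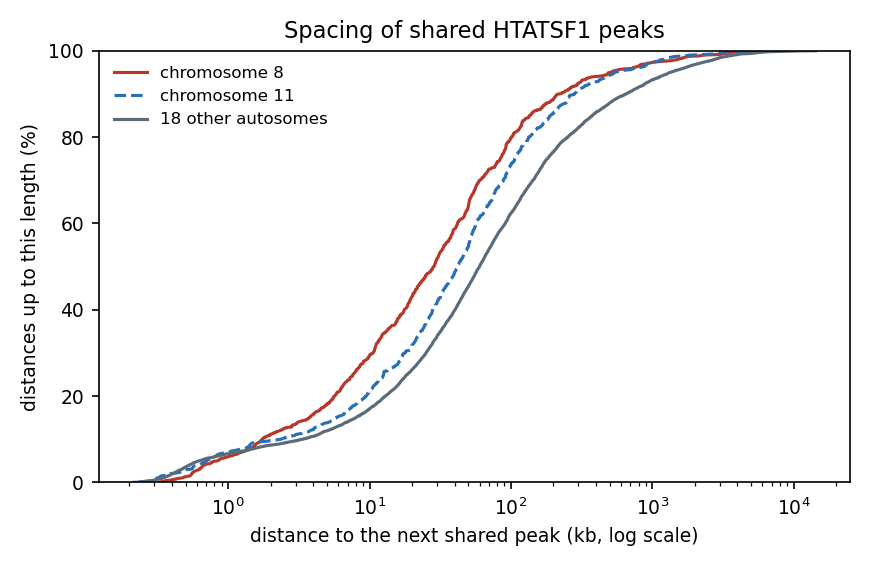
Cumulative percentage (vertical axis) of distances from one shared peak's midpoint to the next (horizontal axis, kb, log scale) for chromosome 8 (red), chromosome 11 (blue, dashed) and the 18 other autosomes together (grey). The medians are 28.6, 41.9 and 59.9 kb, and the lines lie close together at 1 kb.

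Shared peaks at most 50 kb apart were joined, and a block was a run of at least 5. Chromosome 8 had 46 blocks with 461 shared peaks, 50.1% of the 920, on 6.07 Mb or 4.74% of the 127.9 Mb from the first shared peak to the last. On the other autosomes the part in blocks ran from 4.37% (chromosome 18) to 37.8% (chromosome 7), and it was 30.0% on chromosome 11. A chromosome with more shared peaks per Mb has more of them in blocks by this rule alone, so the share restates density in part. Blocks held a median of 6.5 shared peaks and at most 37, and were a median of 100.5 kb long. Inside blocks the median distance was 10.1 kb (quartiles 4.03 and 21.8 kb). Distances of at most 1 kb made up 7.23%, and those of at most 5 kb 28.9%.

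Scores were alike inside and outside blocks. The median was 148.1 in replicate 1 and 100.1 in replicate 2 for the 461 shared peaks in blocks, and 151.8 and 97.6 for the 459 outside. The upper 10% of both lists held 69 of the first (14.97%) and 61 of the second (13.3%). Widths had medians of 686 and 693 bp. Within chromosome 8, shared peaks in dense runs were thus neither stronger nor wider in the median by more than a few percent.

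The fullest block ran from 73117841 to 73430649 and held 37 shared peaks on 312.8 kb, with a median distance of 5.67 kb. Of its 36 distances, 18 were at most 5 kb and 4 at most 1 kb, and the longest was 42.0 kb. Its shared peaks had median scores of 214.3 in replicate 1 (61.2 to 568.98) and 111.3 in replicate 2 (52.6 to 323.0), and 10 of them were in the upper 10% of both lists, the most of the 10 fullest blocks. The peak at 73222058 to 73223455 was its highest. The neighbouring peak at 73220302 to 73220987 scored 241.3 and 307.3, and the one on the other side, at 73224453 to 73224851, scored 108.9 and 96.1. Peaks of unlike score thus lay side by side within a few kb, although the last of these stood at percentiles 63.0 and 71.0 of its lists. The block held 61 replicate 1 peaks in all, of which 37 were shared, and 47 replicate 2 peaks, of which 45 were. Blocks are runs of shared peaks, so a high share inside a block follows in part from its definition.

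A second group of blocks lay between 86 and 88 Mb. The block from 87334770 to 87643906 held 32 shared peaks, with a median distance of 7.89 kb and median scores of 162.7 and 108.2, and 6 of them were in the upper 10% of both lists. The block from 86478718 to 86781445 held 30 at a median distance of 3.09 kb, the shortest of the 10 fullest blocks. Its median scores were lower, at 110.4 and 90.7, and 1 of the 30 was in the upper 10% of both lists. Between these lay the block from 87093958 to 87266930, with 18 shared peaks (median scores 151.8 and 83.96), and before them that from 86090417 to 86265815, with 13 (192.2 and 103.2).

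The other blocks among the 10 fullest were spread over 3 places. Near the fullest block, the one from 73987265 to 74234265 held 29 shared peaks at a median distance of 6.51 kb, and the one from 72606974 to 72898750 held 15 at 17.5 kb. Near 108 Mb, the blocks from 107748541 to 107937987 and from 107994894 to 108232209 held 16 and 15 shared peaks. The block from 28087307 to 28372012, with 15 at 15.5 kb, was the one of the 10 in the first 50 Mb. The median distances of the 10 fullest blocks thus ran from 3.09 to 17.5 kb, and their median replicate 1 scores from 107.2 to 214.3.

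**Figure D5:**
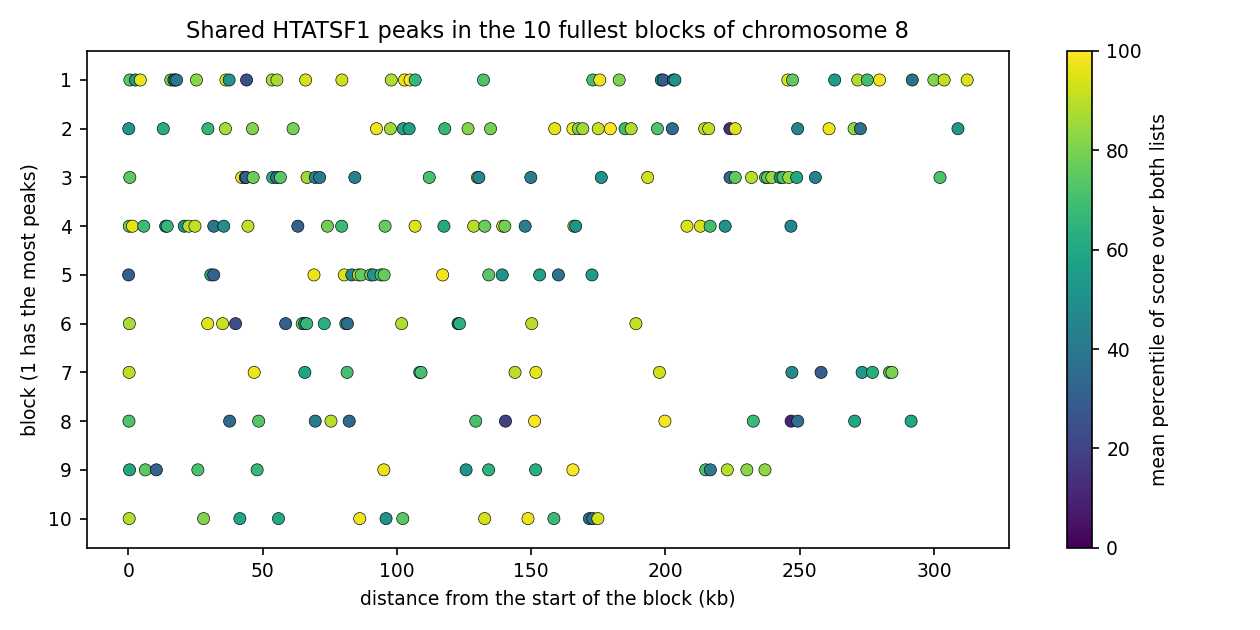
Position of each shared peak within the 10 blocks of chromosome 8 that hold the most (vertical axis, block 1 has 37 and block 10 has 13), as the distance of its midpoint from the block's start (horizontal axis, kb), coloured by mean percentile of score over both lists. Peaks of high and low percentile are interspersed, and block 3 has the shortest median distance, 3.09 kb.

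Along the chromosome, 5 of 27 windows of 5 Mb held at least 50 shared peaks and together 482 of the 920 (52.4%). These windows were 70 to 75 Mb with 136, 85 to 90 Mb with 123, 105 to 110 Mb with 91, 120 to 125 Mb with 67 and 125 to 130 Mb with 65. In the same order they held 240, 195, 149, 181 and 127 of the 1703 replicate 1 peaks, shared or not. The windows were thus dense in peaks of any kind, and their numbers of shared peaks restate that in part. They were not alike in sharing: 63.1% of the replicate 1 peaks were shared from 85 to 90 Mb, and 37.0% of 181 from 120 to 125 Mb. The latter window held 103 replicate 2 peaks. The shares of windows were not matched for score, with which sharing rises. Other stretches of the chromosome held few peaks in either list. The longest distance with no shared peak ran from 98412599 to 106772340, or 8.36 Mb, and held 3 replicate 1 and 2 replicate 2 peaks, none of which overlapped. The next 2 ran from 49929008 to 55615105 (5.69 Mb, 3 and 1 peaks) and from 4678965 to 8661050 (3.98 Mb, 5 and 0 peaks).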

How the data were processed

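For each immunoprecipitated library the authors deposited a peak list with positions (other values) and a score. The submitters' processing notes name Bowtie, Picard 1.82, bedtools and the build mm9. Their roles and settings, and those of the peak caller, are not stated there. No deposited score is under 50. Groups and replicate numbers come from the sample titles. Input libraries did not enter the comparisons made here.

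The shared peaks, comparisons and rules were chosen with earlier results of these data known. A peak's partner is the highest-scored of those it overlaps. Shares of the other autosomes were weighted to the 10 score bins of chromosome 8. Width at equal score was added after the values were seen. Named regions come from the 20 shared peaks of highest mean percentile, the 10 fullest blocks, the 5 highest with no other within 100 kb, the 3 largest disagreements each way and the 3 longest gaps. No p-value is given, since peaks of a single pair of lists are not replicates. Intervals for shares are Clopper-Pearson intervals at 95%. The code was tested on simulated lists. It ran in Python 3.11.15 with scipy 1.17.1, numpy 2.4.6, matplotlib 3.10.9 and pandas 2.3.3.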

Additional observations from a re-analysis of the deposited data

How the results depend on the processing

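Of 61 alternative values, 45 kept their direction and stayed near the main value (within the binomial interval of a share, or 1.5 times a count, distance, ratio or correlation), 12 moved further and 4 changed direction. The difference in sharing at equal score, 4.55 points in replicate 1 and 6.87 in replicate 2, turned to -3.38 and -2.78 with bins of width. It was 0.668 and -0.557 with joint bins of score and width, 0.831 and -0.887 with midpoints within 200 bp, and 7.45 in replicate 1 where an overlap had to span 50% of each peak. Shared peaks numbered 573 in the upper 50% of each list, where fewer peaks were compared. Blocks follow their definition. Joining at 20 kb gave 24 blocks with 22.9% of the shared peaks and a median distance of 5.66 kb, and joining at 100 kb put 73.8% in blocks at 15.9 kb. Runs of at least 3 gave 90 blocks with 65.8%, and the 50% overlap put 43.4% in blocks. The width ratio at equal score lay between 1.23 and 1.28 in replicate 1 and between 1.19 and 1.33 in replicate 2 under its 6 alternatives each. At these values the limit of 1.5 times reaches past a ratio of 1, so it hardly tests them. All of them are among the 45. The 16 alternatives for width and for midpoint distance were chosen after seeing the data. Genes were not assigned as planned, for want of an annotation of mm9. No paired analysis was possible because no peak list of an input library was at hand. Leaving out a library leaves no overlap to count. Depth is unknown, so a region without a shared peak cannot be called free of HTATSF1.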

Other observations

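Some strong chromosome 8 peaks of replicate 1 had no partner. The 3 highest-scored unshared peaks, chosen after their values were seen, were at 128093254 to 128094590 (score 389.6), 13287148 to 13288442 (333.2) and 59989896 to 59991409 (331.2). The nearest replicate 2 peaks lay 98.9, 3.99 and 20.7 kb away. The highest-scored unshared replicate 2 peak of chromosome 8 scored 187.2.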
